A study of Mus musculus with 11 samples.

Results

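The 10 genes described here encode growth factors of the epidermal growth factor (EGF) family and the ErbB receptors that bind them. They were chosen by gene family and not by a rule on measured values, but with earlier results of these data known. Of the 55513 genes in the count table they are 10, with 6 ligands (Hbegf, Areg, Ereg, Btc, Tgfa and Nrg1) and 4 receptors (Egfr, Erbb2, Erbb3 and Erbb4). Their transcripts were measured by poly(A) RNA sequencing in hearts of 11 female C57BL/6J mice aged 8 weeks. In 8 mice the left anterior descending artery (LAD) was permanently ligated, which causes a myocardial infarction (MI), and tissue of the infarct with its border zone was taken 3 days later. Of these, 4 mice received the hydroxamate ADAM10 inhibitor GI254023X at 100 mg/kg (A10i) and 4 mice received only the solvent, DMSO. A sham operation was done in the other 3 mice, which also received DMSO and gave healthy heart tissue, so that infarction and the kind of tissue sampled cannot be told apart in any comparison with sham mice. Mice are named by group and number, as DMSO mouse A105.

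EGF-family ligands are made as transmembrane proteins, and most are released when a membrane protease of the ADAM group cuts off their extracellular domain, a step called shedding. The released ligand joins ErbB receptors into pairs, which switch on the RAS-ERK and PI3K-AKT relays inside the cell. EGF, amphiregulin and TGF-alpha bind EGFR, HB-EGF, betacellulin and epiregulin bind both EGFR and ErbB4, and neuregulins bind ErbB3 and ErbB4. ErbB2 has no ligand of its own and acts as a partner, and ErbB3 has little kinase activity. In the heart, neuregulin 1 from endothelial cells acts on ErbB4 and ErbB2 of cardiomyocytes, and loss of ErbB2 or ErbB4 from cardiomyocytes causes cardiomyopathy.

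What makes the ligands one family is the EGF-like motif, a stretch with 6 cysteines that folds into the part that binds the receptor. The coding bases of this motif are shown for 5 ligands, because it is the feature that these otherwise different proteins share and that the count table does not show. In the GENCODE M21 transcripts (GRCm38, the same assembly as mm10) a search for 6 cysteine codons spaced as in this motif found 1 match in each of the 6 ligands. The lines below give the sense strand from 5′ to 3′ with the cysteine codons in capitals:

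Ereg: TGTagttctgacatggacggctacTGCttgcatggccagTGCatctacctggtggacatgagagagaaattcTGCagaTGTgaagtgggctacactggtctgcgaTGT

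Areg: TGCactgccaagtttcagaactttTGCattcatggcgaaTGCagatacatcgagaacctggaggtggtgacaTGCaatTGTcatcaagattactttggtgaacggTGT

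Btc: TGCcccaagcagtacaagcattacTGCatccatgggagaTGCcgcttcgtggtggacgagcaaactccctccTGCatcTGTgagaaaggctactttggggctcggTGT

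Tgfa: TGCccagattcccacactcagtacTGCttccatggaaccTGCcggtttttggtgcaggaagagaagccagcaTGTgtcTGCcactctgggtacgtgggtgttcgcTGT

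Nrg1: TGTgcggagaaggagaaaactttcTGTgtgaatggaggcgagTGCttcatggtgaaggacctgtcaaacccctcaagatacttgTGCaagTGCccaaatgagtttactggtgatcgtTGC

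The motif of Ereg lies at chr5:91088496-91089111 (plus strand), that of Areg at chr5:91143614-91144364 (plus strand), that of Btc at chr5:91362421-91366197 (minus strand), that of Tgfa at chr6:86263200-86269960 (plus strand) and that of Nrg1 at chr8:31837698-31849398 (minus strand), and each range includes an intron that is left out of the sequence. In Ereg, Areg, Btc and Tgfa it spans exons 3 and 4 of the longest coding transcript with 108 bases, and the cysteine codons are separated by 7, 4, 10, 1 and 8 other codons. In Nrg1 it spans exons 2 and 3 with 120 bases and a spacing of 7, 5, 13, 1 and 8 codons. Ereg, Areg and Btc are neighbours on chromosome 5, where the gene of Ereg occupies 91074622 to 91093646, that of Areg 91139599 to 91148432 and that of Btc 91357261 to 91402994.

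The libraries held 21702659 to 29511782 counts each. Values per mouse are given as normalized counts, in which each count was scaled by its library's TMM-adjusted size, with the mean size of the 11 libraries set as the common scale. Differences between groups are log2 fold changes fitted by edgeR, tested two-sided by its quasi-likelihood method and adjusted (Benjamini-Hochberg) over all genes tested. A gene was called where the adjusted p-value was under 0.01, the threshold of the study. The groups are separate mice, and the DMSO and the A10i mice were set against the same 3 sham mice, so these 2 comparisons are not independent of each other.

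Among the ligands, Hbegf and Ereg were higher after MI, Btc and Nrg1 were not called in any comparison, and Areg was close to the limit of detection. Hbegf, which encodes heparin-binding EGF-like growth factor, had 425, 500.2 and 507 normalized counts in the sham mice, 976, 1031, 1431 and 2762 in the DMSO mice, and 689, 733, 857 and 1009.6 in the A10i mice. All 8 infarcted mice lay above all sham mice, and the highest value, in DMSO mouse A105, stood apart from the other DMSO mice. Against sham mice, Hbegf was 3.22-fold higher in DMSO mice (log2 fold change 1.68, SE 0.35, edgeR adjusted p = 0.00594). In A10i mice it was 1.73-fold higher (log2 fold change 0.79, SE 0.13, edgeR adjusted p = 0.00192). The call in DMSO mice was lost without sham mouse S1, S2 or S3 or DMSO mouse A129, with edgeR adjusted p-values of 0.0256 to 0.0366, and with no filter on low counts (edgeR adjusted p = 0.0557). That in A10i mice was lost without sham mouse S1 (edgeR adjusted p = 0.012) and with all 11 libraries in one fit (edgeR adjusted p = 0.0844, DESeq2 adjusted p = 0.0313).

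Ereg, the gene of epiregulin, was close to the limit of detection in sham hearts. It had 4.45, 0 and 3.09 normalized counts in the sham mice, from 4, 0 and 3 reads. In the DMSO mice it had 104.99, 55.9, 151 and 122, and in the A10i mice 75.8, 36.5, 30.7 and 33.2. The 8 infarcted mice lay far above the sham mice, and DMSO mouse A127 with 55.9 lay below A10i mouse A116 with 75.8, so that the treated and untreated mice overlapped. The log2 fold change was 5.41 (SE 0.60, edgeR adjusted p = 0.00032) in DMSO and 4.13 (SE 0.63, edgeR adjusted p = 0.00113) in A10i mice against sham mice. Because the sham group held 7 reads in all, the size of these changes depends on the prior count of the fit, and Ereg passed the filter on low counts only through the infarcted mice. With 1 library left out the log2 fold changes ranged from 4.80 (without sham mouse S2) to 6.06 (without S1) in DMSO and from 3.52 to 4.78 in A10i mice. It was called against sham mice in both comparisons in all 15 fits, the reported one and 14 alternatives.

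Of the other ligands tested, 0 were called by edgeR in the reported fits. Tgfa, which encodes transforming growth factor alpha, had 29.4, 36.0 and 38.9 normalized counts in sham mice, 43.0, 58.9, 66.9 and 71.4 in DMSO mice and 46.6, 62.7, 65.2 and 80.1 in A10i mice. All infarcted mice lay above the sham mice, but the difference did not pass the threshold in DMSO mice (log2 fold change 0.78, SE 0.24, edgeR adjusted p = 0.0264) or in A10i mice (0.88, SE 0.23, edgeR adjusted p = 0.0126). In DMSO mice it passed in 1 of 15 fits, with library size in place of TMM normalization (edgeR adjusted p = 0.00914). In A10i mice it passed in 5 of 15, which were library size normalization (edgeR adjusted p = 0.00627), no filter on low counts (0.00632), omission of A10i mouse A119 (0.00611), and DESeq2 on the 7 libraries or on all 11 (adjusted p = 0.00848 and 0.00694). Btc, the gene of betacellulin, had 46.5, 48.3 and 50.1 normalized counts in sham mice, 31.8, 36.9, 42.0 and 44.4 in DMSO mice and 33.2, 41.5, 46.6 and 51.5 in A10i mice. The DMSO mice lay below all sham mice, with an estimate of -0.33 on the log2 scale (95% confidence interval -0.78 to 0.12, edgeR adjusted p = 0.221), whereas the A10i mice overlapped the sham mice.

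Nrg1, the gene of neuregulin 1, had 42.7, 56.7 and 75.1 normalized counts in sham mice, 28.1, 36.1, 59.2 and 101.9 in DMSO mice and 35.6, 61.8, 74.1 and 94.997 in A10i mice. The 3 groups overlapped, and the 95% confidence interval of the log2 fold change ran from -1.001 to 0.90 in DMSO and from -0.51 to 0.91 in A10i mice against sham mice, so a change within these bounds was not detectable with this spread. Areg, the gene of amphiregulin, had 0, 1 and 0 reads in sham mice, 3, 3, 4 and 2 in DMSO mice and 3, 4, 0 and 1 in A10i mice. It did not pass the filter on low counts and was not tested, and a count of 0 allows up to 3 reads. The plot of normalized counts by mouse shows these values beside those of the receptors.

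**Figure D1:**
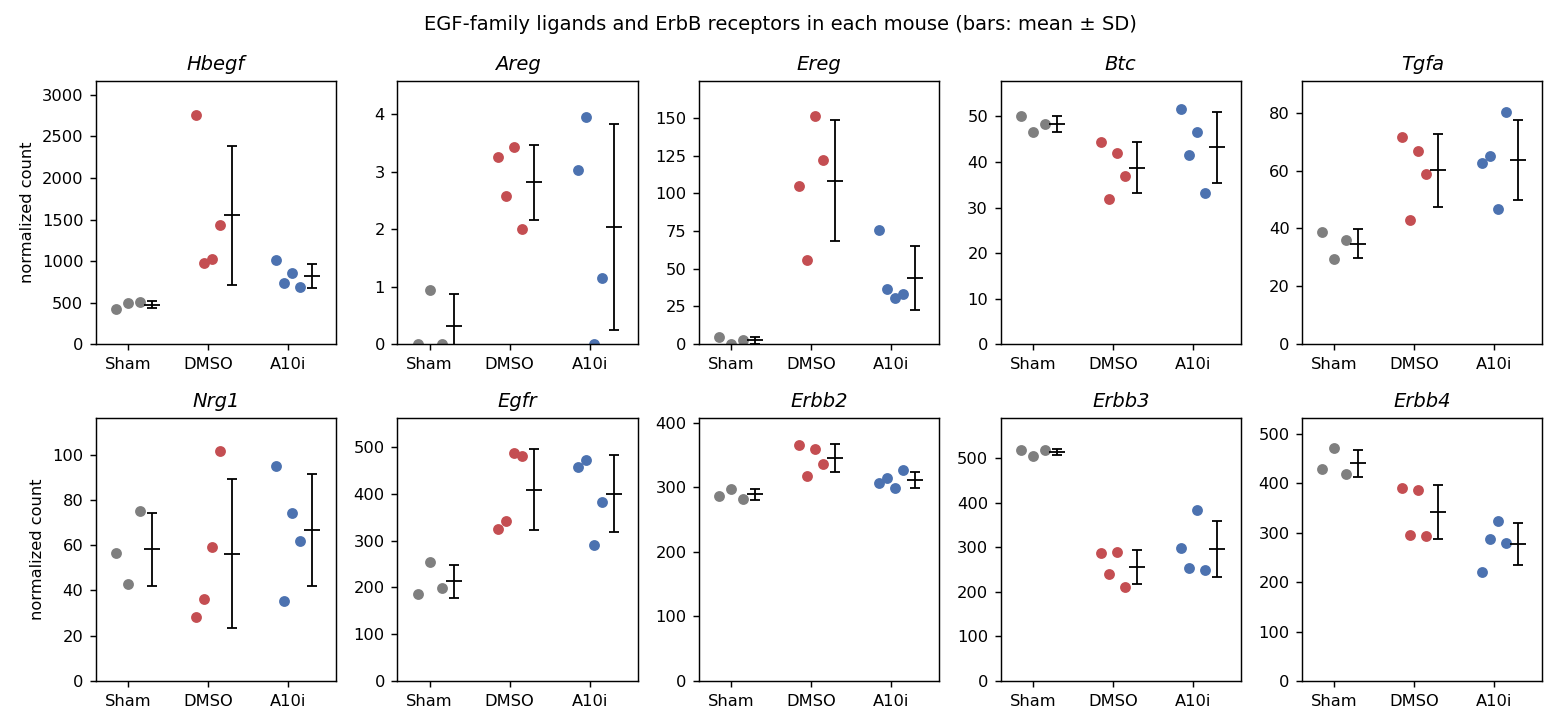
Normalized counts (vertical axes, from 0) of the 6 ligands and 4 receptors in 3 sham, 4 DMSO and 4 A10i mice. Points are mice, and the bar beside each group is the mean with its SD. All infarcted mice lie above the sham mice for Hbegf, Ereg, Tgfa, Egfr and Erbb2 and below them for Erbb3 and Erbb4, and the DMSO and A10i mice overlap for each gene.

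Among the receptors, Egfr was higher and Erbb3 lower after MI. Egfr, the gene of the EGF receptor, had 186, 253 and 199 normalized counts in the sham mice, 326, 343, 487 and 480.3 in the DMSO mice and 457, 472, 291 and 382 in the A10i mice. No infarcted mouse reached down to the sham range. The log2 fold change was 0.93 (SE 0.18, edgeR adjusted p = 0.00388) in DMSO and 0.91 (SE 0.18, edgeR adjusted p = 0.00413) in A10i mice. Both calls were lost without sham mouse S1 or S3, with edgeR adjusted p-values of 0.023 to 0.0233, and the call in A10i mice also without A10i mouse A120 (edgeR adjusted p = 0.0112).

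Erbb3 had 517, 505 and 518 normalized counts in the sham mice, 287, 240, 288 and 209.7 in the DMSO mice and 299, 253, 384 and 249.6 in the A10i mice. The sham mice lay within a narrow range above all infarcted mice. Erbb3 fell by 1.01 on the log2 scale in DMSO mice (SE 0.12, edgeR adjusted p = 0.000322) and by 0.79 in A10i mice (SE 0.14, edgeR adjusted p = 0.00177). In DMSO mice it was called in all 15 fits, and in A10i mice the call was lost without sham mouse S1 or S3 (edgeR adjusted p = 0.0108 and 0.0107).

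Erbb4, the cardiomyocyte receptor of neuregulins, had 429, 472 and 420 normalized counts in the sham mice, 391, 296, 387 and 293 in the DMSO mice and 220, 286, 323 and 278 in the A10i mice. All infarcted mice lay below the sham mice. Against sham mice, Erbb4 fell by 0.67 on the log2 scale in A10i mice (SE 0.12, edgeR adjusted p = 0.00211), a call lost without sham mouse S1 or S2 (edgeR adjusted p = 0.0104 and 0.0143). In DMSO mice the log2 fold change of -0.38 (SE 0.13, edgeR adjusted p = 0.0393) did not pass the threshold. This does not show that the groups differed, because the direct difference between A10i and DMSO mice was -0.29 with a 95% confidence interval from -0.62 to 0.03 (edgeR adjusted p = 0.419).

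Erbb2, the shared partner of the other receptors, had 287, 298 and 282 normalized counts in the sham mice, 365, 318, 360 and 337 in the DMSO mice and 306, 315, 298.4 and 326 in the A10i mice. The infarcted mice lay above the sham mice by a small margin. The log2 fold change of 0.24 in DMSO mice (SE 0.10, edgeR adjusted p = 0.0663) and that of 0.11 in A10i mice (SE 0.08, edgeR adjusted p = 0.324) did not pass the threshold. With library size in place of TMM normalization, which moved the median of all genes to 0.21, Erbb2 was called in DMSO mice (log2 fold change 0.45, edgeR adjusted p = 0.00754).

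In all, 4 of the 9 members tested were called in DMSO against sham mice, 3 higher (Hbegf, Ereg and Egfr) and 1 lower (Erbb3). In A10i against sham mice 5 of 9 were called, the same 3 genes higher and Erbb3 and Erbb4 lower. Over all genes tested the share called was 22.5% in DMSO mice, with 12.9% higher and 9.60% lower, and 22.8% in A10i mice, with 13.8% higher and 9.09% lower. Without sham mouse S1 or S3 the number of members called was 2 in DMSO mice, and it was 1 and 3, respectively, in A10i mice. Over all genes tested the calls fell as well, to 1542 of 17615 and 1540 of 17499 in DMSO mice and to 1620 of 17324 and 1664 of 17277 in A10i mice, from 3857 of 17119 and 3885 of 17004 with all libraries. Libraries of the 2 groups did not overlap for 8 of 9 members in DMSO and 7 of 9 in A10i mice, where 48.4% and 48.1% of all genes tested did not overlap.

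The comparison of A10i with DMSO mice addresses whether inhibition of ADAM10, a protease that sheds betacellulin and EGF, changed the transcripts of these ligands and receptors 3 days after MI. At an adjusted p-value under 0.01, edgeR called 0 of the 9 members and 0 (0%) of 16793 genes tested. The number over all genes depends on the tool. DESeq2 called genes in this comparison at the same threshold, as given in the closing section, but 0 of the 9 members. The study, which used DESeq2, reported genes both higher and lower with the inhibitor at this threshold. At an unadjusted p-value under 0.05, edgeR found 2 members lower with A10i, Hbegf and Ereg, where 13.8% of all genes tested passed, 6.73% lower and 7.10% higher. Hbegf was at 0.534 of its DMSO level (log2 fold change -0.90, SE 0.31, 95% confidence interval -1.60 to -0.21, edgeR adjusted p = 0.245). Ereg was at 0.410 of its DMSO level (log2 fold change -1.29, SE 0.36, 95% confidence interval -2.10 to -0.47, edgeR adjusted p = 0.173). Neither passes the correction over all genes, and in both the highest A10i mouse overlapped the lowest DMSO mouse. For 0 of the 9 members were the A10i and DMSO libraries free of overlap, as they were for 8.18% of all genes tested.

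The difference in Hbegf was -0.47 without DMSO mouse A105, the mouse with the highest value, and that in Ereg was -1.68 without A10i mouse A116 and -1.08 without DMSO mouse A128. DESeq2 gave adjusted p-values of 0.0659 for Hbegf and 0.0228 for Ereg with the 8 infarcted libraries, and 0.0249 and 0.0215 with all 11 libraries, a fit chosen after the data were seen. Over all fits together the adjusted p-value lay between 0.0249 and 0.569 for Hbegf and between 0.0215 and 0.438 for Ereg. The direction was lower with A10i in all 16 fits for both genes.

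For the other 7 members tested the confidence intervals bound what could have been missed. The log2 fold change of A10i against DMSO mice was -0.02 for Egfr (95% confidence interval -0.44 to 0.39), -0.14 for Erbb2 (-0.33 to 0.06) and 0.22 for Erbb3 (-0.14 to 0.58). For Erbb4, as given above, it was -0.29 (-0.62 to 0.03). It was 0.17 for Btc (-0.29 to 0.62), 0.09 for Tgfa (-0.40 to 0.59) and 0.25 for Nrg1 (-0.69 to 1.18). The receptors were thus bounded more closely than Nrg1, whose interval spans more than 2-fold.

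**Figure D2:**
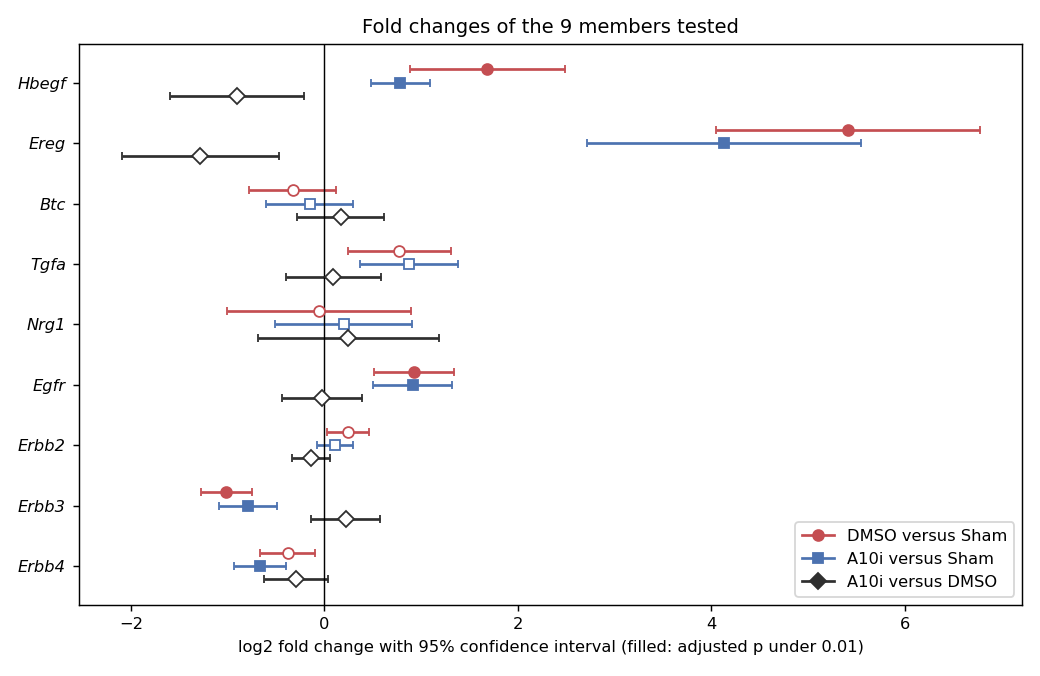
Log2 fold change (horizontal axis) of the 9 members tested in each of the 3 comparisons, with the 95% confidence interval as a bar; filled symbols passed an edgeR adjusted p-value of 0.01. Ereg stands farthest to the right against sham mice, Erbb3 lies to the left in both infarcted groups, and no A10i versus DMSO symbol is filled.

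Levels of different genes can be compared only per length of transcript, here as FPKM, counted fragments scaled to the combined length of a gene's exons and to the library's size. In sham hearts the order was Hbegf at 3.86 ± 0.37 FPKM (SD, n = 3), Erbb3 at 3.34, Erbb2 at 2.17, Erbb4 at 1.39, Egfr at 0.735, Btc at 0.418, Tgfa at 0.210, Nrg1 at 0.147, Ereg at 0.0238 and Areg at 0.0102. Neighbours in this order overlapped only for Tgfa with Nrg1 and for Ereg with Areg. Nrg1 is scaled by a long combined exon length of 15433 bases that no single transcript covers, which lowers its value.

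In DMSO mice Hbegf remained first at 12.5 ± 6.74 FPKM (SD, n = 4) and Erbb2 came second at 2.59 ± 0.16. Erbb3 at 1.66, Egfr at 1.41, Erbb4 at 1.08 and Ereg at 1.03 followed, each overlapping the next, so that Ereg had moved from the ninth place in sham hearts to the level of Erbb4. In A10i mice Hbegf stood at 6.65 ± 1.16 FPKM (SD, n = 4), Erbb2 at 2.34, Erbb3 at 1.93, Egfr at 1.38, Erbb4 at 0.876 and Ereg at 0.417. From Erbb2 down to Btc at 0.374 each gene overlapped the next.

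As a share of the summed FPKM of the 4 receptors, Erbb3 held 43.8 ± 1.85% with sham operation (SD, n = 3), against 24.6 ± 2.50% with DMSO and 29.4 ± 5.40% with A10i (SD, n = 4 each). Egfr held 9.60 ± 1.33%, 20.9 ± 4.05% and 21.3 ± 4.58% in the same groups, and Erbb2 28.4 ± 0.23%, 38.4 ± 1.58% and 35.9 ± 2.46%. The largest share thus lay with Erbb3 in each sham mouse, while the mean share of Erbb2 was the largest in both infarcted groups. The sum itself ranged from 7.50 to 7.89 FPKM in sham, from 6.06 to 7.48 in DMSO and from 6.27 to 6.76 in A10i mice. Of the 6 ligands, Hbegf held 82.6 ± 2.41% of the summed FPKM in sham mice, 85.0 ± 6.04% in DMSO mice and 82.5 ± 2.09% in A10i mice, and Ereg held 0.524 ± 0.494%, 7.88 ± 3.99% and 5.03 ± 1.51%.

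**Figure D3:**
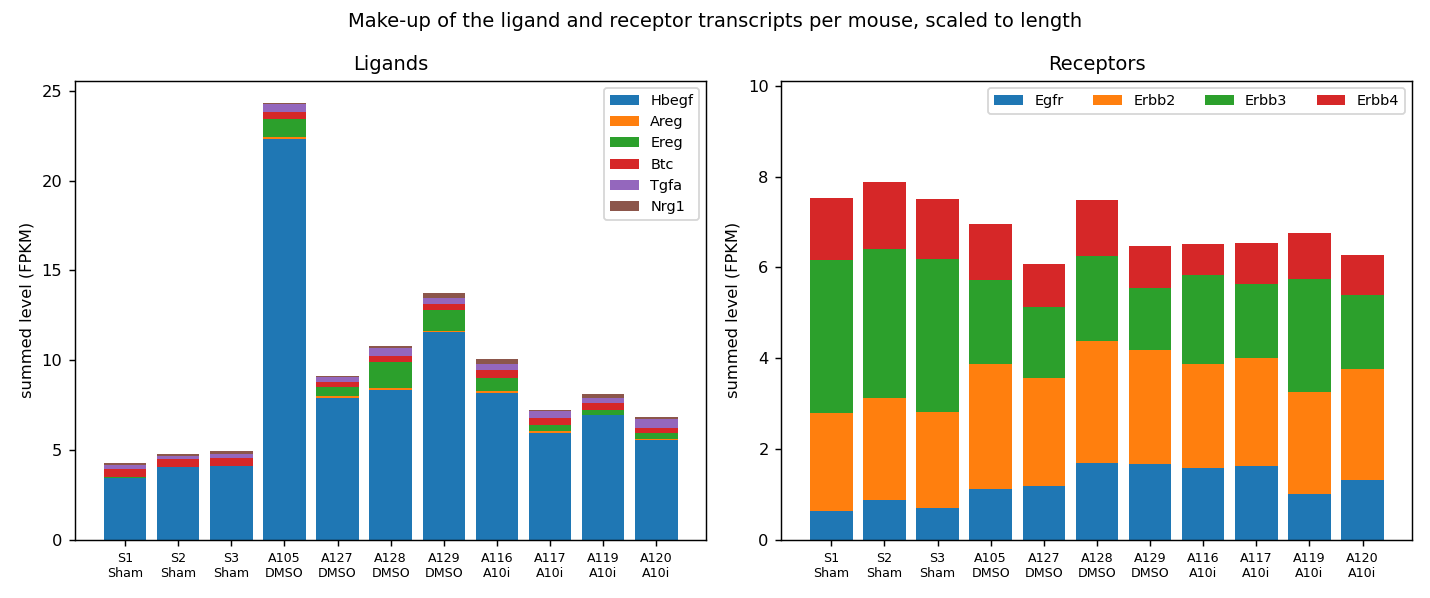
Summed FPKM (vertical axes) of the 6 ligands and of the 4 receptors in each mouse, as stacked bars from 0. Hbegf makes up most of each ligand bar and reaches its highest level in DMSO mouse A105, and the Erbb3 part of the receptor bars is larger in the 3 sham mice than in the 8 infarcted mice.

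These are bulk samples, in which fewer cells of a type and less RNA per cell cannot be told apart, and the levels of cell type markers differed between the groups. The 8 cardiomyocyte markers summed to 84784 to 85464 CPM, which are counts scaled to library size, in sham mice. They summed to 38433 to 58064 in DMSO and 49256 to 67428 in A10i mice. Against sham mice, 4 of 8 were called lower in DMSO and 2 of 8 in A10i mice. Myh6 stood at -1.19 and -0.79 on the log2 scale, but Tnnt2 at 0.10 and -0.02 and Tnnc1 at -0.05 and -0.13. Over all genes tested, 9.60% and 9.09% were called lower, and 12.9% and 13.8% higher, in these 2 comparisons. The 7 neutrophil markers summed to 1.04 to 2.09 CPM in sham, 68.0 to 125 in DMSO and 13.6 to 47.5 in A10i mice, with 6 of 6 tested called higher in both infarcted groups, while Ly6g, Retnlg and Mmp8 were at 0 in at least 1 sham mouse. Between A10i and DMSO mice these 6 neutrophil markers were lower at an unadjusted p-value under 0.05, with 0 called at the adjusted threshold and a median log2 fold change of -1.74 in edgeR's test. Macrophage and monocyte markers summed to 161 to 175, 258 to 437 and 333 to 573 CPM, fibroblast markers to 878 to 938, 1278 to 3953 and 3088 to 5894 CPM, and Schwann cell markers to 15.8 to 19.8, 11.3 to 13.9 and 11.8 to 16.1 CPM in sham, DMSO and A10i mice, respectively. Against sham mice, the macrophage and monocyte markers were called higher for 6 of 8 in DMSO and 8 of 8 in A10i mice, the fibroblast markers for 3 of 7 and 6 of 7, and the Schwann cell markers were called lower for 1 of 5 and 0 of 5. Of 5 epicardial and mesothelial markers 2 were called higher in each infarcted group, with sums of 28.1 to 41.2, 38.1 to 59.1 and 51.4 to 94.2 CPM. Of 8 endothelial markers 2 were called lower in DMSO and 1 in A10i mice, and of 6 smooth muscle markers 1 higher and 2 lower in DMSO and 2 higher and 2 lower in A10i mice. The B cell markers tested had no calls, and the T cell markers were not tested. The 4 atrial cardiomyocyte markers summed to 10.2 to 24.3 CPM in sham mice, 12.9 to 86.2 in DMSO mice and 39.6 to 93.4 in A10i mice, and of 3 tested 0 and 1 were called higher. The 5 red blood cell markers had no calls and summed to 594 to 1286 CPM with sham operation, 234 to 3717 with DMSO and 1045 to 5014 with A10i. The highest DMSO value was that of mouse A105, which was also highest for Hbegf. The highest sum of all was that of A10i mouse A117, whose Hbegf value of 733 normalized counts lay below those of A10i mice A116 and A119. The part of these markers in the members' differences was not tested.

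Members were also set against these marker lists, as the log2 CPM of the gene minus the mean log2 CPM of the markers in the same mouse. Ereg relative to the neutrophil markers was -0.20 ± 0.74 with sham operation (SD, n = 3), and -0.82 ± 0.39 in DMSO mice and -0.48 ± 0.40 in A10i mice (SD, n = 4 each), and the groups overlapped. Ereg relative to the macrophage and monocyte markers was -6.19 ± 0.85, -3.07 ± 0.83 and -4.52 ± 0.16, and the 4 A10i mice lay below the 4 DMSO mice. Between A10i and DMSO mice, 7 of 8 macrophage and monocyte markers had a higher estimate (list median 0.37 on the log2 scale). The other, Cd14, stood at -0.76. The 6 neutrophil markers tested all had a lower estimate, as had Ereg. The part of either list in the difference of Ereg was not tested. In the sham mice Ereg had 4, 0 and 3 reads, and each neutrophil marker other than Csf3r had at most 7 reads. The sham values of Ereg on both scales, and the overlap with sham mice, therefore depend in part on the prior count of 2.

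Erbb4 relative to the cardiomyocyte markers was -8.55 ± 0.11 in sham mice, -8.34 ± 0.25 in DMSO mice and -8.83 ± 0.09 in A10i mice. The DMSO mice overlapped the sham mice on this scale, whereas the A10i mice, at -8.92 to -8.72, lay below both other groups. Erbb2 relative to the same markers was -9.15 ± 0.07, -8.31 ± 0.24 and -8.65 ± 0.18, higher in each infarcted mouse than in each sham mouse. Erbb3 relative to the Schwann cell markers was 3.83 ± 0.24, 3.14 ± 0.28 and 2.98 ± 0.33, lower in each infarcted mouse than in each sham mouse. Egfr relative to the fibroblast markers was -3.17 ± 0.29, -3.38 ± 0.47 and -3.99 ± 0.36, and on this scale no infarcted mouse lay above the sham range. This list was mixed. In DMSO against sham mice the log2 fold change was 2.85 for Col1a1, 2.65 for Postn and 2.12 for Col1a2. It was 0.58 for Pdgfra, 0.28 for Lum, 0.22 for Dcn and 0.10 for Tcf21, each less than that of Egfr (0.93). In A10i mice the same genes lay above and below Egfr. Hbegf relative to the macrophage and monocyte markers was 0.69 ± 0.26, 0.70 ± 0.75 and -0.28 ± 0.30, and on this scale the mean of the DMSO mice was close to that of the sham mice. Hbegf relative to the cardiomyocyte markers was -8.44 ± 0.13, -6.28 ± 0.62 and -7.27 ± 0.37, relative to the endothelial markers -2.31 ± 0.15, -0.52 ± 0.77 and -1.51 ± 0.21, and relative to the neutrophil markers 6.69 ± 0.26, 2.95 ± 0.67 and 3.76 ± 0.68. The sham value against the neutrophil markers depends in part on the prior count, because most of these markers had few reads in sham mice. Tgfa relative to the macrophage and monocyte markers was -3.01 ± 0.17, -3.84 ± 0.61 and -3.94 ± 0.47, so its mean was lower after MI on this scale and higher as a normalized count. The differences between members and marker lists were not tested.

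**Figure D4:**
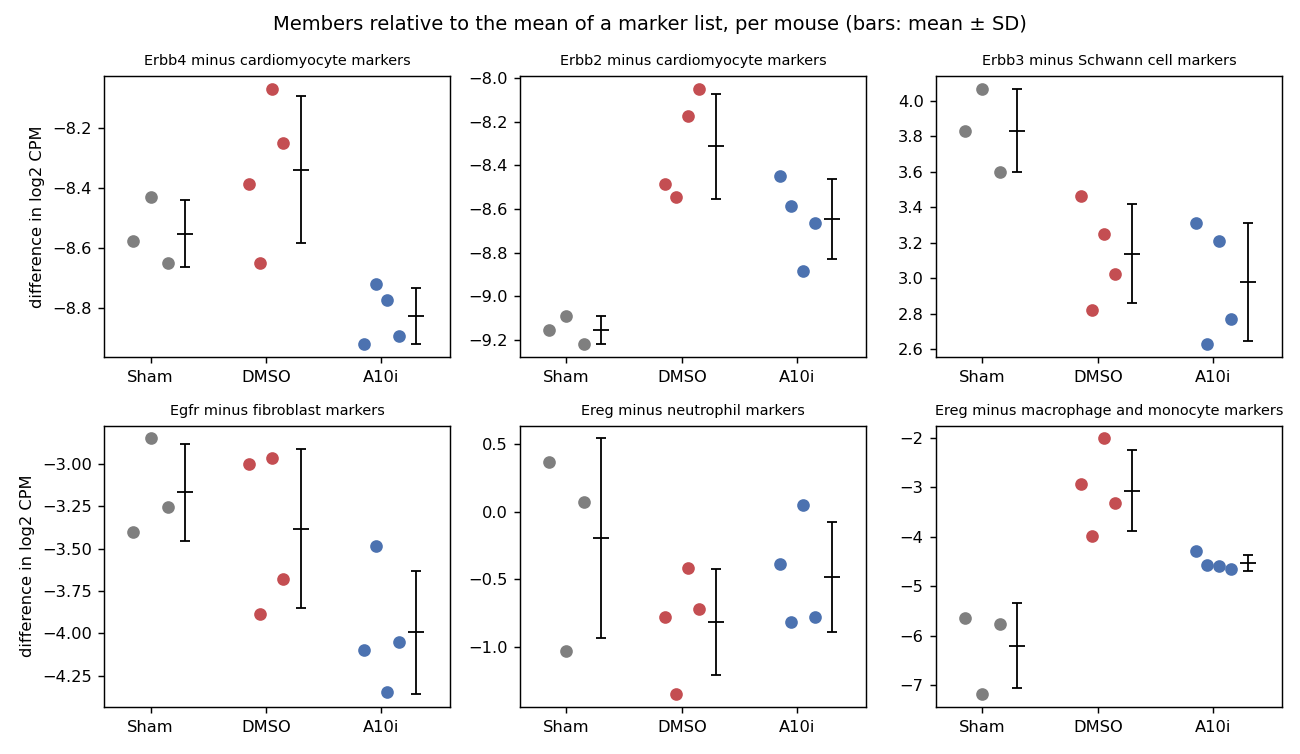
Difference in log2 CPM (vertical axes, not starting at 0) between a member and the mean of a list of cell type markers in each mouse; points are mice and bars are the mean with its SD. Erbb4 lies lowest in the A10i mice, Erbb3 and Erbb2 separate the sham from the infarcted mice in opposite directions, and Ereg relative to neutrophil markers overlaps among the 3 groups. In the sham mice Ereg and most neutrophil markers had few reads.

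By Pearson's r of log2 CPM over all 11 libraries, which share the step from sham to infarcted tissue, the genes most like Ereg among 12408 candidates were Ptgs2 (0.988), S100a9 (0.985) and Adamts4 (0.984). Those most like Hbegf were Mical2 (0.987), Enah (0.987) and Kif5b (0.984). Egfr was closest to Vasn (0.977) and Rhoj (0.966), Erbb2 to Actr10 (0.966), Get4 (0.960) and Pak6 (0.956), Erbb3 to Mink1 (0.978), Jarid2 (0.973) and Hspa4l (0.972), and Erbb4 to Map3k7 (0.974), Nfe2l1 (0.974) and Shmt1 (0.965). For the other ligands the best matches were lower, with Rab29 (0.935), Vsig4 (0.927) and Gfpt2 (0.923) for Tgfa, Rb1 (0.914), Cd2bp2 (0.913) and Znfx1 (0.882) for Btc, and Klhl36 (0.892), Rnf144a (0.873) and Fam120a (0.865) for Nrg1. These values describe likeness over libraries that differ mainly by infarction, and no test was made of them.

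The genes that act before and after the receptors were described by 6 lists with 78 genes, of which 76 were tested. In DMSO against sham mice 33 were called higher and 11 lower, where 12.9% of all genes tested were called higher and 9.60% lower. In A10i against sham mice 29 were called higher and 8 lower, where the shares were 13.8% and 9.09%. In either direction, 22.5% and 22.8% of all genes were called. The same shares apply beside the counts of each list against sham mice below. Of the other EGF-like ligands, Nrg2 fell by 1.99 on the log2 scale in DMSO mice (edgeR adjusted p = 0.000411) and by 1.61 in A10i mice (edgeR adjusted p = 0.00136). Egf and Nrg4 were not called, Epgn with at most 7 reads per library was not tested, and Nrg3 had 0 reads in all 11 libraries.

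The sheddases, the proteases that release the ligands, and their partners were higher or not called. Of 11 tested, 7 were called higher and 0 lower in both infarcted groups, with medians of 0.55 in DMSO and 0.51 in A10i mice, where the median of all genes was 0.0021 and -0.0056. In DMSO and A10i mice, respectively, Adam8, a protease of leukocytes, rose by 5.62 and 5.15 on the log2 scale (edgeR adjusted p = 0.000112 and 0.000894), Adam12 by 4.80 and 4.51, Adam19 by 1.66 and 1.11, Adam9 by 0.90 and 0.75, and Adam15 by 0.55 and 0.51.

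Adam10, the target of the inhibitor, and Adam17, a main sheddase of Hbegf, Areg, Ereg and Tgfa, are given for their role and not by the rule for naming genes. Adam10 had 1479, 1504 and 1392 normalized counts in sham mice, 1459, 1823, 1552 and 2369.5 in DMSO mice and 2318, 1788, 1787 and 1719.6 in A10i mice. Its log2 fold change was 0.30 (SE 0.16, edgeR adjusted p = 0.164) in DMSO and 0.39 (SE 0.10, edgeR adjusted p = 0.0141) in A10i against sham mice, and 0.09 (SE 0.16, edgeR adjusted p = 0.853) in A10i against DMSO mice. Adam17 differed by -0.04, 0.13 and 0.16 in the same comparisons and was not called. These are transcript levels, and the inhibitor acts on the protein.

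Of 6 membrane partners, 3 were called higher and 1 lower in DMSO, and 4 higher and 0 lower in A10i against sham mice. Cd44, a cell surface receptor for hyaluronan that can present HB-EGF, rose by 2.59 in DMSO (edgeR adjusted p = 7.4e-05) and by 2.06 in A10i mice (edgeR adjusted p = 0.000363). Cd9, a tetraspanin that binds the membrane form of HB-EGF, rose by 0.46 and 0.62, and Cd82 by 0.55 and 0.50. Nrp1 fell by 0.64 in DMSO mice (edgeR adjusted p = 0.000432) and stood at -0.15 in A10i mice (edgeR adjusted p = 0.312). Itgb4 rose by 0.998 in A10i mice (edgeR adjusted p = 0.00309) and stood at 0.33 in DMSO mice (edgeR adjusted p = 0.231).

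Of 26 adaptors and relay genes, 3 were called higher and 8 lower in DMSO, and 1 higher and 6 lower in A10i against sham mice. Plcg1, a phospholipase recruited by active receptors, fell by 0.68 and 0.57 on the log2 scale (edgeR adjusted p = 0.000366 and 0.000375), Stat5a by 0.61 and 0.63, and Pik3r1, a regulatory subunit of PI3K, by 1.02 and 0.70. Pik3r2, another regulatory subunit, fell by 0.50 and 0.37. Nras rose by 0.67 in DMSO mice and stood at 0.38 in A10i mice, where it was not called (edgeR adjusted p = 0.0212). The list median was -0.10 in DMSO and -0.06 in A10i mice.

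Among 15 feedback inhibitors, 7 were called higher and 1 lower in DMSO, and 5 higher and 1 lower in A10i against sham mice. Dusp5, a phosphatase of nuclear ERK that is induced by ERK activity, had 93.5, 92.1 and 111 normalized counts in sham mice, 416, 404, 456 and 451 in DMSO mice and 244, 293, 255 and 253 in A10i mice. It rose by 2.12 in DMSO (edgeR adjusted p = 1.1e-05) and by 1.40 in A10i mice (edgeR adjusted p = 0.000105), and the 3 groups did not overlap. In DMSO and A10i mice, respectively, Spry4 rose by 1.07 and 0.90, Spred1 by 0.62 and 0.61, and Errfi1, an inhibitor of the EGFR kinase, by 1.42 and 0.85. Lrig1, which promotes degradation of ErbB receptors, fell by 0.56 and 0.59.

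The transcripts known to be induced by growth factors were higher in nearly the whole list. Of 15, 13 were called higher and 0 lower in DMSO (median 2.41), and 12 higher and 0 lower in A10i against sham mice (median 1.80). In DMSO and A10i mice, respectively, Fos rose by 3.75 and 2.95 on the log2 scale (edgeR adjusted p = 4.15e-05 and 0.000315), Plaur by 3.83 and 2.85, Junb by 2.41 and 1.80, Atf3 by 3.82 and 1.74, and Ier3 by 1.55 and 0.82. Many stimuli other than ErbB ligands are known to induce these genes.

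Between A10i and DMSO mice, 0 of the 76 pathway genes were called by edgeR at an adjusted p-value under 0.01, with 15 lower and 3 higher at an unadjusted p-value under 0.05, and DESeq2 called 7. The lower ones lay mostly in the list of induced transcripts, in which 15 of 15 had a lower estimate with A10i. Of these, 9 had an edgeR unadjusted p-value under 0.05, where 6.73% of all genes tested were lower at that level. In 7 the groups did not overlap, where 4.40% of all genes tested lay wholly lower. The list was chosen with earlier results of these data known, so these counts are descriptive and not an independent test. The list median was -0.62 and that of all genes 0.0034. Atf3, a stress-induced transcription factor, had 2100, 955, 1071 and 1090 normalized counts in DMSO and 336, 276, 354 and 252 in A10i mice, with no overlap (log2 fold change -2.09, SE 0.25, edgeR adjusted p = 0.048). Ier3 had a log2 fold change of -0.74 and Dusp5, of the feedback list, one of -0.72, both with an edgeR adjusted p of 0.048. The neutrophil markers were lower in the same mice, as given above, and their part in these differences was not tested.

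In the remaining lists the genes with the smallest p-values were Errfi1 at -0.57 (edgeR adjusted p = 0.228), Rhbdf2 at -0.40 (0.117) and Adam19 at -0.56 (0.147). Itgb4 stood at 0.66 (edgeR adjusted p = 0.105) and Nrp1 at 0.49 (0.11), Nras at -0.30 (0.333), and Nrg2 at 0.38 (0.622) and Egf at -0.25 (0.731). None of these passed the threshold, and the list medians of the sheddases (-0.06), the relays (0.03) and the feedback inhibitors (-0.07) were close to 0.

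**Figure D5:**
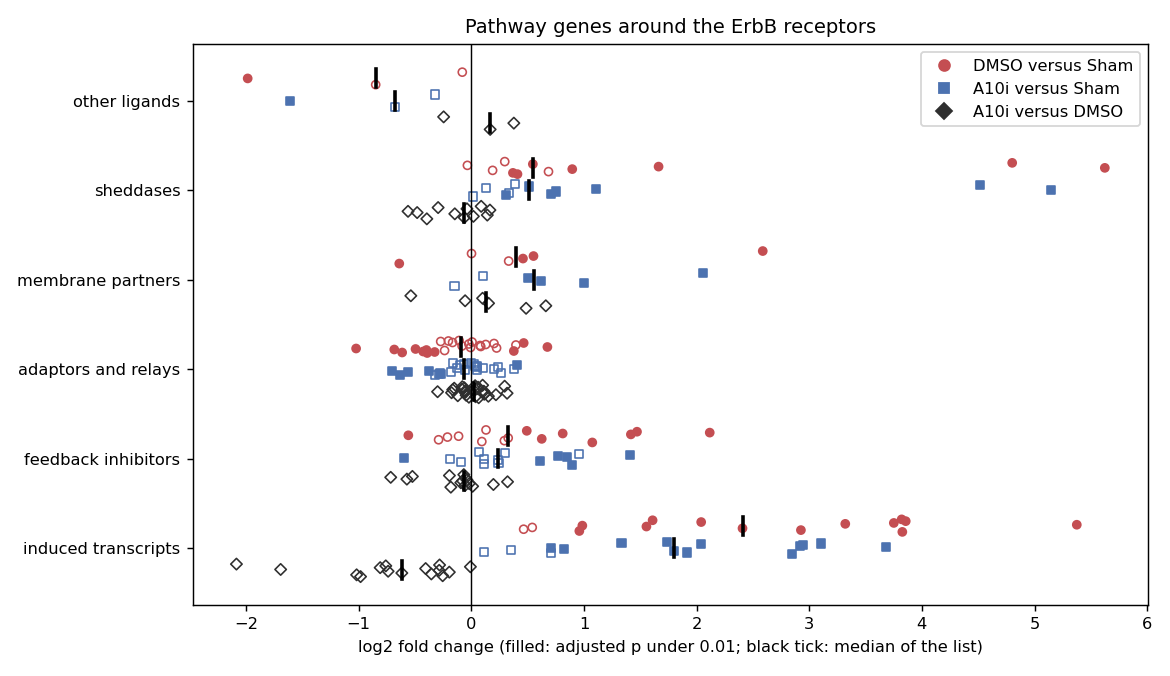
Log2 fold changes (horizontal axis) of the 76 pathway genes tested, by list and comparison; filled symbols passed an edgeR adjusted p-value of 0.01 and black ticks are list medians. The induced transcripts lie to the right against sham mice, with medians of 2.41 and 1.80, and to the left in A10i against DMSO mice, with a median of -0.62.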

How the data were processed

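Raw counts per gene were used as the authors deposited them, whole numbers for 55513 Ensembl genes without normalization. Per the methods and the labels, the authors made strand-specific poly(A) libraries, demultiplexed with bcl2fastq 2.20.0, aligned to mm10 with GSNAP 2020-12-16 and counted uniquely aligned reads with featureCounts 2.0.1. The strand setting of the counting is not given in the sources used here, so overlapping genes on opposite strands are uncertain. GENCODE M21 named 55154 identifiers.

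In R 4.3.3, each pair of groups was fitted on its own libraries with edgeR 4.0.16 (filterByExpr, TMM, robust quasi-likelihood F-test, Benjamini-Hochberg adjustment, threshold 0.01). Log2 CPM used a prior count of 2. Alternatives were RLE and library size normalization, no filter, DESeq2 1.42.0, limma-voom (limma 3.58.1), all 11 libraries in one fit, an adjusted p-value under 0.05, and leaving out each library in turn. Pairs of replicates differed by more than counting error, and more so in infarcted than in sham mice. Chi-square per degree of freedom was 4.04 to 4.62 in sham, 27.4 to 60.8 in DMSO and 9.01 to 43.8 in A10i mice. In simulated A10i and DMSO counts, edgeR called 99 of 100 genes changed 4-fold and 92 of those changed 2-fold over 55513 genes, with 3 false calls. In the simulated comparisons of DMSO and of A10i with sham counts, over the same 55513 genes, it called 99 of 100 in each case at 4-fold and 69 and 76 at 2-fold, with 1 false call each. The simulation gave all genes the same setting for the spread between mice and changed only genes above a minimum mean count. These shares therefore do not measure how many real changes of that size would be called, and an uncalled member is not shown to be unchanged.

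All 10 members were named. Of each pathway list and comparison, up to 4 called genes with the smallest adjusted p-values were named, or the 2 with the smallest p-values where none was called. For likeness, the 3 protein-coding genes with the highest r and a mean CPM of at least 1 were named. A few genes that these rules select are not reported here. The members and lists were chosen with earlier results of these data known.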

Additional observations from a re-analysis of the deposited data

How the results depend on the processing

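Ereg against sham mice in both infarcted groups, and Erbb3 in DMSO against sham mice, kept their direction and their call in all 15 fits. When 1 library was left out, the number of members called lay between 2 and 4 (4 with all libraries) in DMSO and between 1 and 6 (5 with all) in A10i against sham mice, lowest without sham mouse S1 (and, in DMSO mice, equally without S3). The number of pathway genes called lay between 26 and 43 (44 with all) in DMSO against sham mice and between 0 and 1 (0 with all) in A10i against DMSO mice. For all genes it lay between 1522 and 4051 (3857 with all), 1620 and 4365 (3885 with all) and 0 and 1 (0 with all) in the 3 comparisons. A threshold of 0.05 raised the calls over all genes to 6832 in DMSO and 6672 in A10i against sham mice. In A10i against DMSO mice, the pathway genes and all genes called were 2 and 43 with no filter, 7 and 231 with DESeq2, 2 and 11 with all 11 libraries in one fit, 3 and 12 at a threshold of 0.05, and 10 and 370 with DESeq2 on all 11 libraries. The cause of these differences was not tested, apart from the looser threshold and the fewer samples.

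Signs changed only among uncalled members. Nrg1 in DMSO against sham mice turned to 0.18 with library size alone and lay between -0.50 and 0.17 when 1 library was left out. Btc in A10i against sham mice turned to 0.036 with library size alone. With 1 library left out, Nrg1 in A10i against sham mice lay between -0.024 and 0.43, Tgfa in A10i against DMSO mice between -0.042 and 0.22, and Egfr in that comparison between -0.12 and 0.11. Library size alone moved the median over all genes to 0.21 in DMSO and 0.18 in A10i against sham mice. No paired analysis was possible because mice of different groups share no number.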
